A study of Mus musculus with 4 samples.

Results

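Transcripts of 32 genes that work in DNA replication and cell division were described in single cells from the lungs of mice carrying 4T1 tumour cells. The genes were taken by name from the 31053 gene rows of the deposited tables, and all 32 were found. They were handled as 12 genes of DNA synthesis (S genes), 16 genes of mitotic entry and division (G2/M genes) and 4 broad genes, Stmn1, Tubb5, Hmgb2 and H2afz, which resting cells also transcribe.

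Balb/c mice received 4T1 cells, a mouse mammary carcinoma line, into a vein. The injected cells were either unmodified (label 4T1.WT) or lacked PD-L1, a surface protein that restrains T cells through the receptor PD-1. All mice were hosts with no stated genetic change, so the alteration lay in the tumour cells alone. On day 14 the lungs were perfused and digested, and cells bearing CD45, the surface protein of leukocytes, were pulled out with magnetic beads and sequenced by droplet 3′ RNA sequencing. There were 2 libraries labelled WT (WT 1 and WT 2) and 2 labelled PD-L1 KO (named PD-L1 KO 1 and 2 here). No label says whether each came from a separate mouse, whether the knockout line was 1 clone or how old the mice were, so p-values measure only the spread between these libraries.

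The groups are those of the sample labels. The names of the deposited tables carry the opposite condition, and the libraries labelled WT sit in tables named KO, so each direction below holds for the labels only. Cd274, which encodes PD-L1, could not settle this. Among the 22 kept cells with epithelial or carcinoma markers it had 0 UMIs (unique molecules counted) in WT 1 and WT 2, 2 in PD-L1 KO 1 and 1 in PD-L1 KO 2, and whether the 3′ end of the edited gene is still transcribed was not tested. Over all kept cells, which are mostly host cells, Cd274 stood at 30.0, 23.3, 46.3 and 38.5 counts per 1000000 UMIs (CPM) in WT 1, WT 2, PD-L1 KO 1 and 2.

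The 4 libraries held 10382 cell barcodes and between 17618220 and 19635983 UMIs each. After filtering, 9051 cells were kept, between 2018 and 2451 per library, with median UMIs per cell of 4374 in WT 1, 4616 in WT 2, 5096 in PD-L1 KO 1 and 5513.5 in PD-L1 KO 2. The share of barcodes that failed the filter ran in the same order, from 8.30% to 13%. Any pair of libraries shared at most 3 barcodes. Cells were assigned to lineages by marker genes, which placed 7264 cells and left 19.7% without a lineage.

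A dividing cell copies its DNA in S phase and separates the copies in mitosis, with G2 between them. Factors of the E2F family switch on the replication genes as cells leave G1, and a later wave of mitotic genes follows, many of them through a promoter element called CHR, bound by the DREAM and MuvB complexes. In tumour-bearing lung, dividing leukocytes include stimulated T cells and macrophages that renew themselves locally, whereas mature neutrophils do not divide.

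The promoters of the 2 gene groups carried different letters, which is why 5 of them are shown. RefSeq promoters of build GRCm38.p6, the build called mm10, run from 250 bases before to 50 bases after the start of the gene, and 28 of the 32 genes were matched. Mcm4, Ccna2, Aurkb and Stmn1 were not. Each search ran on both strands, and overlapping matches were counted separately. CHR was searched as TTTGAA and in its second form as TTCGAA. E2F was searched in the forms TTGGCGC (the usual one) and TTCCCGC, with the further forms TTGCCGC (less common) and also TTCGCGC. The box bound by NF-Y was searched as CCAAT. A match describes letters in this window and is not a measured binding site. In the sequences below, 5′ to 3′ on the gene's strand, capitals mark every CHR or E2F match.
Ube2c, chr2:164769679-164769978, plus strand: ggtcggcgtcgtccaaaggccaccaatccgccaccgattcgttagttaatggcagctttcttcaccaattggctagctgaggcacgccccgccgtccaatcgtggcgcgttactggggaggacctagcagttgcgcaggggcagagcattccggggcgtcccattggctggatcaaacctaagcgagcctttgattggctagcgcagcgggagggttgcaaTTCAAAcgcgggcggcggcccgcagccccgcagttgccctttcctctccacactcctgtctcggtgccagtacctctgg
Top2a, chr11:99024140-99024439, minus strand: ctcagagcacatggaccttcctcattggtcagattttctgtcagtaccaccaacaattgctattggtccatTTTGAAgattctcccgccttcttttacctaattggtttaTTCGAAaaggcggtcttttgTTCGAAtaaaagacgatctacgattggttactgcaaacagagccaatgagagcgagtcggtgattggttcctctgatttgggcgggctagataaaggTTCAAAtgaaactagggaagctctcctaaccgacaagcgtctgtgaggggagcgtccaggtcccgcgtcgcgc
Cdk1, chr10:69352863-69353162, minus strand: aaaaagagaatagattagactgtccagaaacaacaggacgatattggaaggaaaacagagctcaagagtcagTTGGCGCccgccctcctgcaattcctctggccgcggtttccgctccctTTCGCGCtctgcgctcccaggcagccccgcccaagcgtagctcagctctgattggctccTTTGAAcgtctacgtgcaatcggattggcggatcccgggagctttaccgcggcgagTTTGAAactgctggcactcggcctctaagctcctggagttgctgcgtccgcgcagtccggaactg
Mcm5, chr8:75109259-75109558, plus strand: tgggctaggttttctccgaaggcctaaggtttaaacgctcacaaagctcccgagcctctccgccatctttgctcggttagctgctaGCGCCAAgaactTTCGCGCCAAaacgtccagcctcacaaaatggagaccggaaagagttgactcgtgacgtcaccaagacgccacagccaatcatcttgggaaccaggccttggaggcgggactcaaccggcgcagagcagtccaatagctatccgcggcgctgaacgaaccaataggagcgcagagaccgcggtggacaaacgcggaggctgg
Mcm6, chr1:128359656-128359955, minus strand: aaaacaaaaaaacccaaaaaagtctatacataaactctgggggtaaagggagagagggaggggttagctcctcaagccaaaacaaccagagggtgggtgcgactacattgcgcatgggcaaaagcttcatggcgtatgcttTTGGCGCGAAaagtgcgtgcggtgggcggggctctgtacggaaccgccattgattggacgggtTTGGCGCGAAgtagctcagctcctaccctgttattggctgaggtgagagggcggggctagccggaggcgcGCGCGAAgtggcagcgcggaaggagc

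Ube2c held 1 CHR match, whose first base lay 29 bases before the start, and no E2F match. Top2a held 4 CHR matches, Cdk1 2 CHR and 2 E2F matches, and Mcm5 and Mcm6 held 3 and 5 E2F matches with no CHR match. Matches were counted per gene, and a gene with several promoter windows counted when any of them held a match. A CHR match was present for 10 of the 14 G2/M genes (71.4%) and 2 of the 11 S genes (18.2%), against 21.7% of 27025 genes. An E2F match was present for 7 of 11 S genes (63.6%) and 3 of 14 G2/M genes (21.4%), against 10.9% of all. CCAAT was present for 9 of 11 S genes and 12 of 14 G2/M genes, against 41.1% of all.

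Most G2/M transcripts came from a small set of cells. Cells with at least 5 different G2/M genes numbered 372, or 4.11% of those kept, and held 84.3% of all G2/M UMIs, a concentration that their choice by these genes helps to set. They also held 51.2% of the S UMIs, which did not enter the choice, and 293 of the 372 had at least 4 different S genes. Their median depth was 17125.5 UMIs against 4607 in the other cells, and detecting many genes is easier in deeper cells; the part of depth in this was not tested. Of the 205 doublet-marked barcodes that passed the filter, 14 had 5 or more G2/M genes and are not among the 372.

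To describe each gene without using it to choose cells, the set was rebuilt for each G2/M gene from the other 15. Ccna2, the cyclin of S and G2, then had 96.9% of its UMIs in the set, Cenpf, a kinetochore protein, 96.4%, and Plk1, a mitotic kinase, 95.2%. The median over the 16 G2/M genes was 90.2%, and 2 genes stood lower. Cks1b, a small subunit of cyclin-dependent kinases, had 66.5%, and its relative Cks2 had 37.4%. Cks2 was detected in 21% of neutrophil-gated cells outside the set, whereas each of the other 15 G2/M genes was detected in at most 1.40% of them.

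The S genes had a lower median, 45.6%, and only some stood as high as most G2/M genes. Pclaf, a partner of the replication clamp, had 91.1% of its UMIs in the set, Rrm2, the regulated subunit of ribonucleotide reductase, 89.6%, and Tk1, the thymidine kinase of the salvage pathway, 82.4%. Tyms, thymidylate synthase, had 62.5%. Rrm1, the large subunit of the same reductase as Rrm2, had 48.4%, and the 6 Mcm genes, which encode the replicative helicase, ran from 27.6% for Mcm4 to 46.7% for Mcm5. Pcna, the clamp itself, had 28.6%, and 17.2% of the cells outside the set carried a Pcna UMI. The broad genes ranged from 29.1% for H2afz to 47.6% for Stmn1, and Hmgb2, a chromatin protein, was detected in 80.7% of neutrophil-gated cells outside the set.

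**Figure D1:**
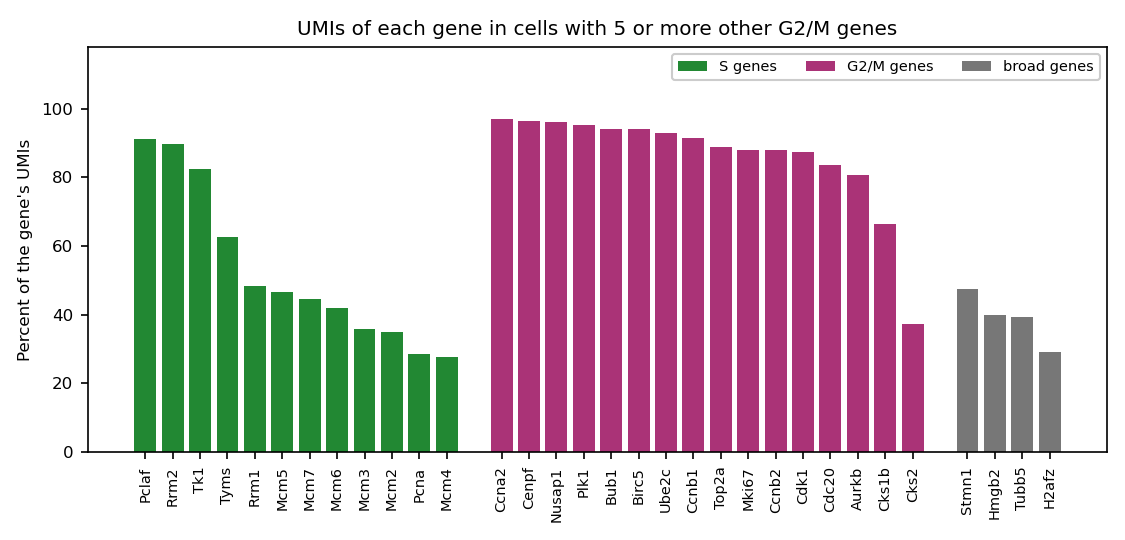
Percent of each gene's UMIs (y axis) found in cells with at least 5 other G2/M genes, over all 9051 kept cells of the 4 libraries; for S and broad genes the 5 are of all 16 G2/M genes. Bars are sorted within S, G2/M and broad genes; Cks2 at 37.4% is lowest of the G2/M bars, and Pclaf, Rrm2 and Tk1 stand above the other S bars.

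The lineages differed in their summed levels. The cells with Foxp3, the regulator of regulatory T cells, had the highest mean sums in the 13 lineages and subsets compared. Their S sum averaged 1365 ± 199 CPM (SD over the 4 libraries) and their G2/M sum 2714 ± 1037 CPM, from only 20 to 28 cells per library, where 1 cell held between 28.4% and 56.6% of the G2/M UMIs. CD8 T cells followed with 797 ± 181 CPM for S and 1084 ± 379 CPM for G2/M, and the T gate as a whole stood at 683 ± 240 and 994 ± 472 CPM. Alveolar macrophages, the resident phagocytes of the airspaces, had 440 ± 42.7 CPM for S and 655 ± 46.1 CPM for G2/M, with less spread between libraries than the T gate. The G2/M ranges of CD8 cells, the T gate, natural killer (NK) cells, alveolar macrophages and CD4 cells overlapped. The S sums of CD8 cells, 534 to 928 CPM, lay above those of alveolar macrophages (399 to 489 CPM) and NK cells (284 to 493 CPM).

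Monocyte/macrophage-gated cells had 292 ± 51.5 CPM for S and 355 ± 67.1 CPM for G2/M. Within them, the cells with more C1q than monocyte-gene UMIs had a G2/M sum of 473 ± 60 CPM and the remainder 104 ± 41.0 CPM, and these ranges did not overlap (391.7 to 519 against 73.1 to 164 CPM). Neutrophil-gated cells had a G2/M sum of 183 ± 52.5 CPM and an S sum of 98.2 ± 20.1 CPM. Cks2 supplied most of the former: it had 242, 113, 140 and 160 UMIs of the 385, 131, 193 and 277 G2/M UMIs in WT 1, WT 2, PD-L1 KO 1 and 2. These comparisons between lineages carry no test.

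**Figure D2:**
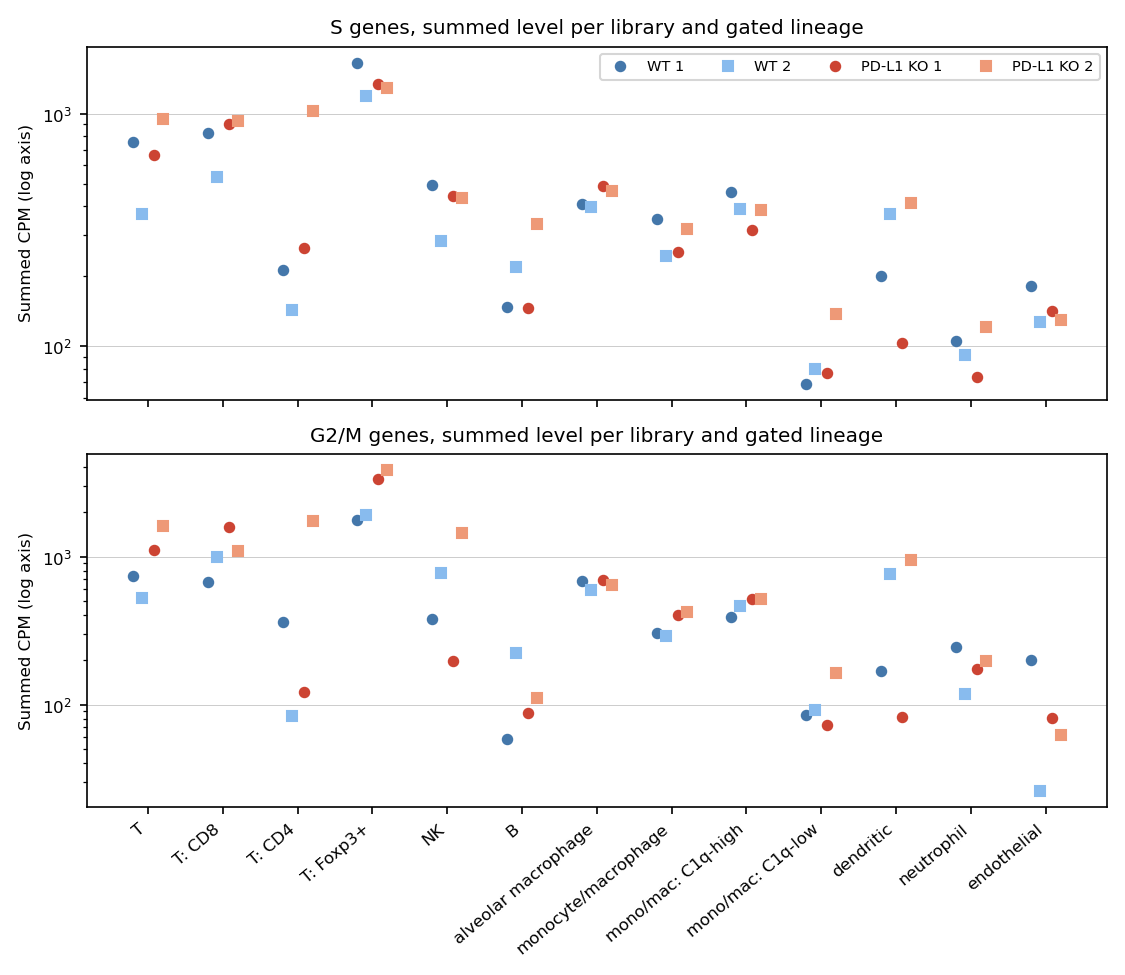
Summed CPM of the 12 S genes (upper) and 16 G2/M genes (lower) on log axes for each gated lineage or subset (x axis); each point is 1 library, blue for WT and red for PD-L1 KO by label. In the T gate both PD-L1 KO points of the lower panel, 1101 and 1607 CPM, lie above both WT points, and in the NK and dendritic gates they do not.

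The study compared lungs seeded with unmodified tumour cells and tumour cells without PD-L1. Of the 32 genes, 0 passed an adjusted p of 0.05 in whole libraries or in any of the 8 lineages that had at least 20 cells in every library (edgeR quasi-likelihood test on counts summed per library, adjusted over all genes tested). The share of all tested genes that passed was 0% in whole libraries, 0.0717% in the B gate, 0% in the NK gate, 0% in the T gate, 0.329% in alveolar macrophages, 0% in dendritic cells, 0% in endothelial cells, 0% in the monocyte/macrophage gate and 0.151% in neutrophils. All 32 genes were tested in whole libraries, T cells, alveolar macrophages and monocyte/macrophage cells. After the filter on low counts 24 were tested in NK cells, 20 in endothelial cells, 17 in dendritic cells, 17 in neutrophils and 15 in B cells. At an unadjusted p below 0.05 there were 21 of the 32 genes in the T gate (11.5% of all genes tested), 9 in the monocyte/macrophage gate (7.13%), 4 in whole libraries (3.97%) and 4 in alveolar macrophages (9.32%). DESeq2 called 1 of the 32 genes in the T gate and 0 in each other comparison.

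In the T gate, all 16 G2/M genes were higher in both libraries labelled PD-L1 KO than in both labelled WT. Among all genes tested there, 25.1% were so placed and 19.4% were placed the opposite way. The groups did not overlap, in the same direction, for 1 of 12 S genes and 3 of 4 broad genes. The median log2 difference (PD-L1 KO minus WT) was 1.12 over the G2/M genes, 0.41 over the S genes and 0.50 over the broad genes, against 0.00 over all genes tested. None of these passed the test.

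Among S genes of the T gate, Pcna measured 60.1 CPM in WT 1, 31.9 in WT 2, 55.6 in PD-L1 KO 1 and 60.1 in PD-L1 KO 2. Mcm5 measured 55.9, 27.0, 55.1 and 76.6 CPM in the same order. For both genes WT 2 was lowest and the other libraries overlapped. Rrm2 measured 64.2, 19.0, 27.6 and 84.0 CPM, with WT 1 and PD-L1 KO 2 high and the other two low. Pclaf, which had the smallest p of the S genes, measured 137 and 76.1 CPM in WT 1 and WT 2 and 152 and 216 CPM in PD-L1 KO 1 and 2. Its log2 difference was 0.74 (SE 0.24, edgeR adjusted p = 0.339), and it was the S gene whose groups did not overlap.

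Among G2/M genes, Ube2c, the ubiquitin-conjugating enzyme that works with the anaphase-promoting complex, had the smallest p. It measured 52.5 CPM in WT 1, 40.5 in WT 2, 120.3 in PD-L1 KO 1 and 149.9 in PD-L1 KO 2, from 76, 66, 227 and 182 UMIs. Both libraries labelled PD-L1 KO were above both labelled WT, with a log2 difference of 1.49 (SE 0.18, edgeR adjusted p = 0.0928). Mki67, which encodes the proliferation marker Ki-67, measured 157 and 111 CPM against 169 and 268 CPM. Its gap between WT 1 and PD-L1 KO 1 was small beside the spread within each group, and its log2 difference was 0.65 (SE 0.22, edgeR adjusted p = 0.345). Top2a, the topoisomerase that untangles replicated DNA, measured 147 and 84.1 CPM against 181 and 288 CPM, a log2 difference of 0.97 (SE 0.26, edgeR adjusted p = 0.278).

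The other G2/M genes of the T gate had log2 differences between 0.75 and 1.82. Cdk1, the kinase that drives entry into mitosis, measured 22.8 and 11.7 CPM against 49.8 and 61.0 CPM. Ccna2 measured 23.5 and 19.0 CPM against 48.2 and 60.1 CPM. Cenpf measured 28.3 and 35.6 CPM against 72.1 and 105 CPM. The adjusted p of these 3 genes (edgeR) lay between 0.113 and 0.114. The largest log2 difference was that of Aurkb, a kinase of chromosome segregation, which rested on 11, 10, 37 and 39 UMIs.

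Of the broad genes in the T gate, Tubb5, a tubulin, had the smallest p. It measured 434 and 375 CPM in WT 1 and WT 2 and 534 and 626 CPM in PD-L1 KO 1 and 2, a log2 difference of 0.47 (SE 0.13, edgeR adjusted p = 0.281). Stmn1, which destabilises microtubules, measured 231, 97.0, 169 and 329 CPM, and its groups overlapped.

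**Figure D3:**
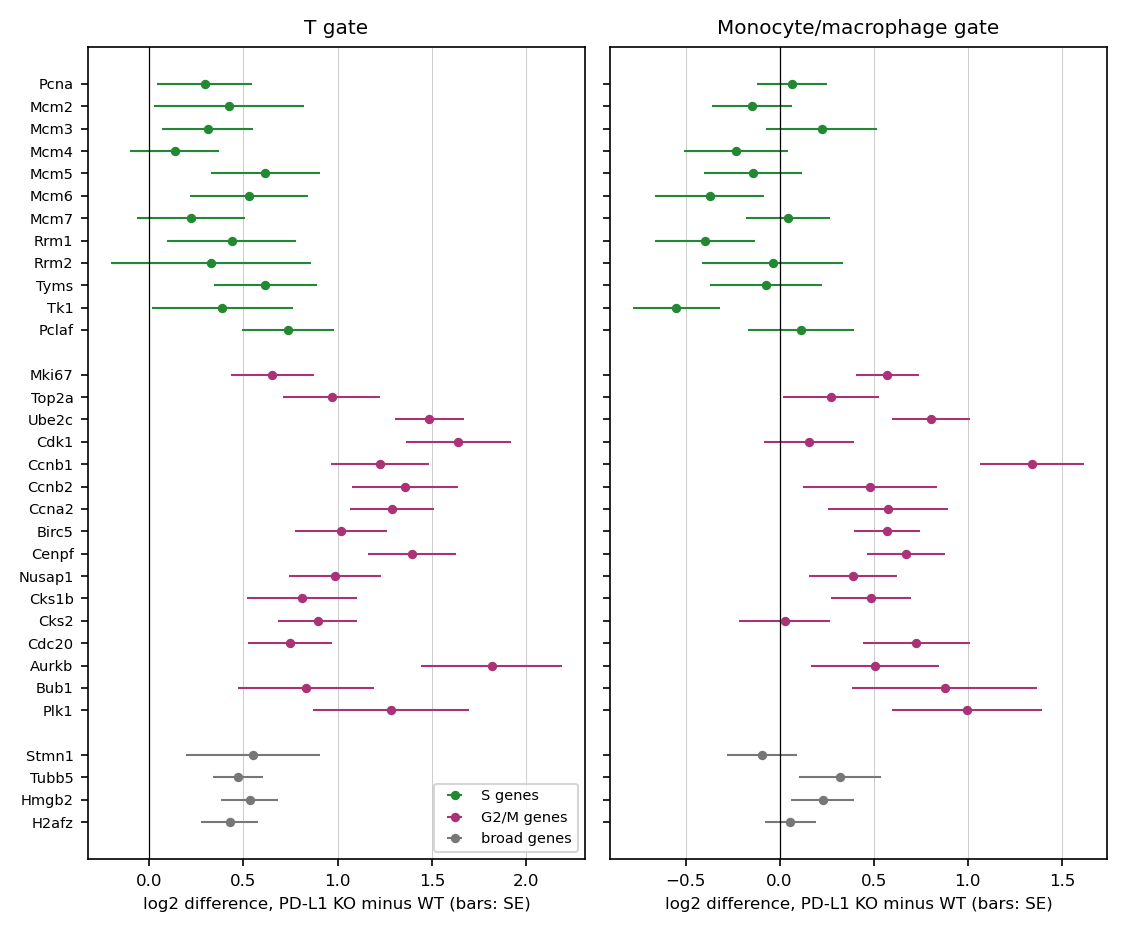
Log2 difference of each gene, PD-L1 KO minus WT by label (x axis), with its SE from edgeR (bars), in the T gate (left) and the monocyte/macrophage gate (right), 2 libraries a group. All 16 G2/M genes lie right of 0 in both panels, and the S genes lie right of 0 in the T gate and on both sides of 0 in the monocyte/macrophage gate.

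Whether these T-cell genes passed the threshold turned on settings. DESeq2 called Ube2c (adjusted p = 0.00899) where 0.0200% of all genes were called. Requiring 80% of a cell's marker UMIs to be T markers, in place of 60%, gave 3 of the 32, Ube2c, Cenpf and Ccna2, where 0.229% of genes were called (edgeR). With the replicate number as a block 7 were called (0.590% of genes), and without a filter on low counts 17 (1.54% of genes). Leaving out PD-L1 KO 1 gave 16 calls (2.14% of genes), leaving out WT 1 gave 4 (0.730%), leaving out PD-L1 KO 2 gave 4 (0.525%), and leaving out WT 2 gave 0 (0.0445% of genes). In each of these settings the called genes had the higher value under the PD-L1 KO label.

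Summed over genes, the G2/M level of the T gate was 739.7 and 529 CPM in WT 1 and WT 2 and 1101 and 1607 CPM in PD-L1 KO 1 and 2, a log2 difference of 1.09. The exact permutation test gave a two-sided p of 0.33, the smallest that 2 against 2 libraries allow. The S sum was 756, 369, 663 and 944 CPM, where the groups overlapped (log2 difference 0.51, exact permutation p = 0.667). Its log2 difference was 0.087 without WT 2, 0.24 without PD-L1 KO 2 and 1.12 without WT 1. A single cell supplied between 12.9% and 29.4% of the G2/M UMIs of a library, and without the top cell of each library the log2 difference was 1.27. With the stricter gate it was 1.14.

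Markers of other cells moved with the T-gate result. Of the 12 marker lists of other lineages, 6 had both libraries labelled PD-L1 KO above both labelled WT and 3 had both below, the dendritic list among the latter (492 and 629 CPM against 430.3 and 292 CPM). The summed level of the 10 monocyte/macrophage markers was 234 and 262 CPM in WT 1 and WT 2 and 338 and 419 CPM in PD-L1 KO 1 and 2, with none of the 10 at 0 in any library. The 7 B-cell markers stood at 30.4 and 74.9 CPM against 114 and 159 CPM, with 1 of 7 at 0 in WT 2. The 8 alveolar macrophage markers stood at 6.22 and 4.91 CPM against 11.1 and 22.2 CPM, with 2 to 4 of 8 at 0. The 8 T markers held between 5337 and 5919 CPM. Cells with Foxp3 were 9.43%, 6.17%, 7.95% and 14.5% of the gate, and the median depth was 3941, 4125, 4254 and 4232 UMIs. The part of these other-cell transcripts and of the subset makeup in the difference was not tested beyond the stricter gate.

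Counted as cells and not as UMIs, the same gate gave overlapping intervals for neighbouring libraries. After each cell was thinned to 1500 UMIs, 3.77% of T cells in WT 1 (95% exact binomial interval 1.90 to 6.64) had at least 2 different G2/M genes. The share was 2.49% in WT 2 (1.08 to 4.85), 6.15% in PD-L1 KO 1 (3.80 to 9.34) and 11.9% in PD-L1 KO 2 (7.71 to 17.3). Unthinned shares were 8.75%, 5.56%, 11.6% and 22.3%. The intervals cover counting error only, and the exact permutation p was 0.33, again the smallest possible. Shares of cells with at least 2 S genes were 8.56%, 4.98%, 8.00% and 11.9% after thinning, with overlapping groups; unthinned they were 23.2%, 17.6%, 25.7% and 30.6%. Neutrophil-gated cells, which carry Cks2 as given above and had median depths of 1834.5 to 2154 UMIs, gave G2/M shares of 1.85%, 0%, 2.43% and 2.26% after thinning. The 95% exact binomial interval of the 0 among 238 neutrophils of WT 2 reached 1.54%. Cells under 1500 UMIs were left out, 0 to 5 per library in the T gate and 59 to 170 in the neutrophil gate.

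**Figure D4:**
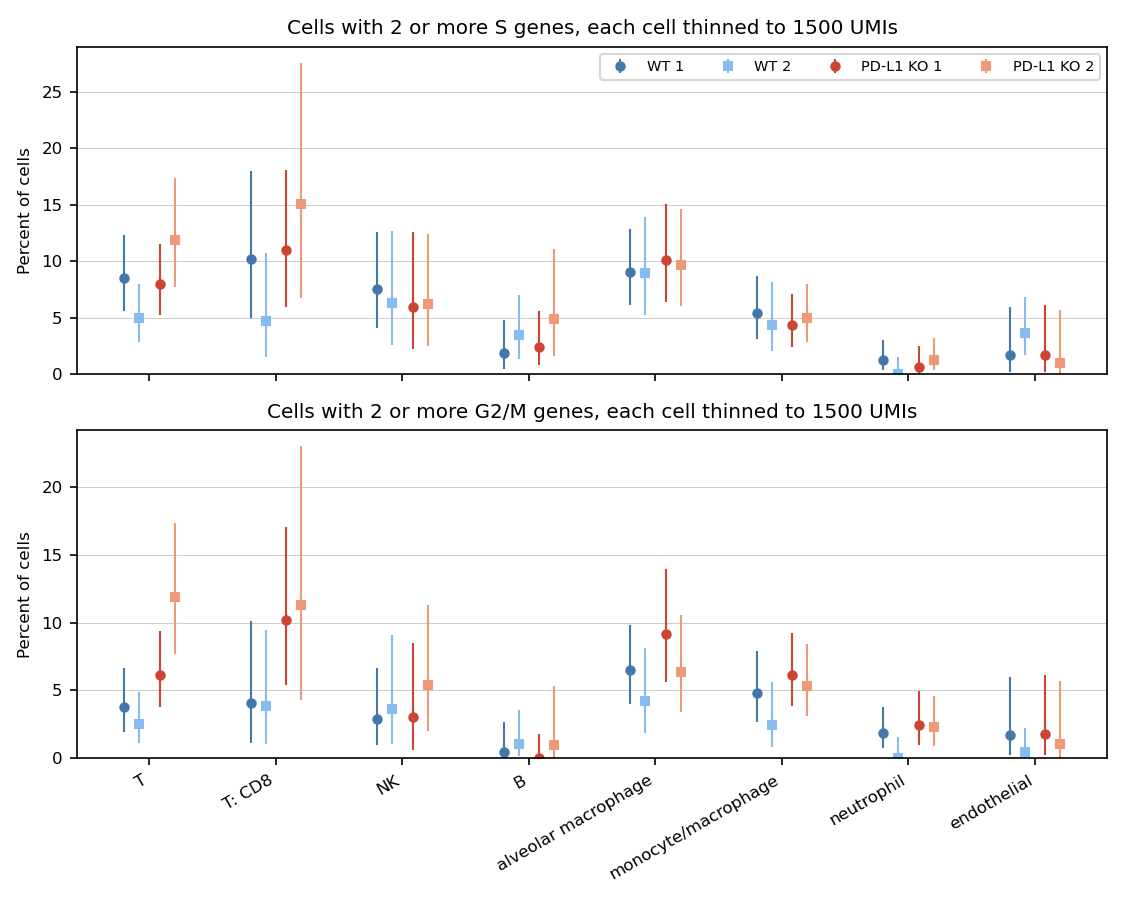
Percent of cells (y axis) with at least 2 different S genes (upper) or G2/M genes (lower) after thinning to 1500 UMIs, by gate (x axis); points are libraries and bars 95% exact binomial intervals. The T-gate G2/M shares run from 2.49% in WT 2 to 11.9% in PD-L1 KO 2.

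Among T-cell subsets, G2/M sums of CD8 cells were 671 and 992 CPM in the libraries labelled WT and 1587 and 1087 CPM in those labelled PD-L1 KO. In cells with Foxp3 they were 1766 and 1902 CPM against 3349 and 3838 CPM. Neither pair of groups overlapped (exact permutation p = 0.33 in each). Cells with 5 or more G2/M genes were few: 6, 4, 12 and 7 CD8 cells in WT 1, WT 2, PD-L1 KO 1 and 2. Among Foxp3 cells they numbered 5, 4, 5 and 8. Foxp3 cells with at least 2 G2/M genes were 10.7%, 15.0%, 19.2% and 28.6% after thinning. Unthinned they were 28.6%, 30.0%, 23.1% and 39.3%, with overlapping groups. CD8 shares did not overlap, at 4.08%, 3.81%, 10.2% and 11.3% after thinning and 11.0%, 4.72%, 18.6% and 22.6% unthinned. CD4 cells without Foxp3 gave G2/M sums of 359.5, 83.3, 122 and 1728 CPM. PD-L1 KO 2 stood apart there and PD-L1 KO 1 lay among the WT libraries. In CD8 cells Mki67 was 183, 182, 231 and 103 CPM, so that this gene did not share the order of the G2/M sum.

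In the monocyte/macrophage gate, 10 of the 16 G2/M genes were higher in both libraries labelled PD-L1 KO and none was lower in both, against 18.2% and 22.9% of all genes tested there. No S gene was higher in both and 2 of 12, Mcm2 and Tk1, were lower in both. Ccnb1, the mitotic cyclin that activates Cdk1, had the smallest p. It measured 6.10 and 5.33 CPM in WT 1 and WT 2 and 14.4 and 14.7 CPM in PD-L1 KO 1 and 2, from 21, 9, 63 and 57 UMIs. Its log2 difference was 1.34 (SE 0.28, edgeR adjusted p = 0.481).

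Mki67 measured 43.9 and 38.5 CPM against 57.2 and 64.3 CPM in these cells, again without overlap (edgeR adjusted p = 0.643). Tk1, the S gene with the smallest p, measured 18.3 CPM in both libraries labelled WT and 11.0 and 13.7 CPM in those labelled PD-L1 KO, a log2 difference of -0.55 (SE 0.23, edgeR adjusted p = 0.691). The broad gene with the smallest p was Tubb5, at 364, 243, 338 and 409 CPM with overlapping groups (edgeR adjusted p = 0.756). The medians over the lists were 0.57 for G2/M, -0.11 for S and 0.14 for broad genes, with 0.00 over all genes tested.

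The G2/M sum of this gate was 305 and 289 CPM against 402 and 422 CPM, a log2 difference of 0.47, and 0.66 without the top cell of each library. The S sum was 351, 245, 254 and 319 CPM with overlapping groups (log2 difference -0.06). After thinning, 4.78%, 2.45%, 6.12% and 5.33% of cells had 2 or more G2/M genes, and unthinned the shares were 18.9%, 9.62%, 20.1% and 22.9%. Within the C1q-high cells the 2 sums went opposite ways: G2/M was 391.7 and 463 CPM against 517 and 519 CPM, and S was 462 and 390.3 CPM against 316 and 387 CPM. Other measures of the gate also ran with the labels. C1q-high cells, which held 77 of its 78 cells with 5 or more G2/M genes, made up 53.0% and 48.1% of it in WT 1 and WT 2 and 57.3% and 55.7% in PD-L1 KO 1 and 2. The gate's own 10 markers stood at 9171 and 9697 CPM against 10365 and 10214 CPM, and the 6 plasmacytoid dendritic markers at 49.1 and 44.4 against 73.2 and 54.2 CPM. B-cell markers stood lower, at 239 and 269 against 214 and 212 CPM, as did dendritic markers, at 114 and 122 against 113 and 73.3 CPM. At most 1 marker of these 4 lists was at 0 in any library. Median depth was 7237 and 6942 UMIs against 8279 and 8718. The part of these measures in the differences was not tested.

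In alveolar macrophages the S genes whose groups did not overlap all went the same way, and such G2/M genes went both ways. Of the S genes, 6 of 12 were higher in both libraries labelled PD-L1 KO and none lower in both, while 5 of 16 G2/M genes were higher and 2, Ccnb1 and Cenpf, lower. The background was 17.5% of genes higher and 23.4% lower. Mcm3, a helicase subunit with the smallest p of the S genes, measured 53.6 and 52.8 CPM in WT 1 and WT 2 and 66.0 and 65.5 CPM in PD-L1 KO 1 and 2. Its log2 difference was 0.33 (SE 0.12, edgeR adjusted p = 0.442). Mki67 had the smallest p of the G2/M genes at 108, 95.3, 130 and 112 CPM (log2 difference 0.27, SE 0.12, edgeR adjusted p = 0.520). Tubb5, with the smallest p of the broad genes, measured 474, 449, 487 and 509 CPM (edgeR adjusted p = 0.621).

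Summed, the S genes stood at 411 and 399 CPM against 489 and 463 CPM (log2 difference 0.23), and the G2/M genes at 687.5, 595, 694 and 642 CPM with overlapping groups (log2 difference 0.06). With the 80% gate the log2 differences were 0.17 for S and 0.40 for G2/M. The gate's own 8 markers were lower under the PD-L1 KO label, at 3414 and 3726 CPM against 3310 and 3124 CPM, with none at 0, and so were the epithelial markers (246 and 235 against 209 and 194 CPM, 2 to 4 of 6 at 0). B-cell markers were higher, at 2.54 and 10.8 against 22.4 and 24.6 CPM (0 to 3 of 7 at 0), as were monocyte/macrophage markers, at 279.6 and 284 against 288 and 309 CPM (0 to 1 of 10 at 0), and plasmacytoid dendritic markers, at 0.634 and 1.41 against 1.93 and 4.18 CPM (0 to 4 of 6 at 0). The median mitochondrial share was 4.90% and 5.24% against 5.44% and 5.54%. The part of these in the results was not tested. Between the gates, Ccnb1 was higher by label in the T and monocyte/macrophage gates and lower in alveolar macrophages; the difference between gates was not tested.

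In whole libraries 15 of the 16 G2/M genes, all but Cks2, were higher in both libraries labelled PD-L1 KO, with 3 of 12 S genes and 1 of 4 broad genes, against 15.2% of genes higher and 26.3% lower. Ube2c measured 33.9, 25.2, 49.3 and 46.9 CPM, a log2 difference of 0.76 (SE 0.20, edgeR adjusted p = 0.748). Mki67 measured 66.6, 55.0, 67.9 and 82.5 CPM and Top2a 69.4, 48.9, 71.3 and 86.9 CPM. For both, PD-L1 KO 1 exceeded WT 1 by less than the gap between WT 1 and WT 2.

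The S genes of whole libraries were lowest in WT 2. Pcna measured 40.8, 32.1, 49.3 and 38.8 CPM, Mcm5 29.4, 17.0, 24.2 and 26.5 CPM, and Rrm2 18.4, 10.0, 14.4 and 19.7 CPM, and the groups overlapped for each. Mcm7, with the smallest p of the S genes, measured 28.6 and 22.5 against 31.8 and 31.7 CPM (edgeR adjusted p = 0.748). Of the broad genes Hmgb2 measured 309 and 274 against 342 and 361 CPM (edgeR adjusted p = 0.748), and Stmn1 measured 144, 176, 136 and 161 CPM.

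Without WT 1 the whole-library test called 29 of the 32 genes, all with the higher value under the PD-L1 KO label, but it then called 17.8% of all genes. Whole libraries also mix lineages in different shares: WT 2 held 314 endothelial-gated cells against 116 to 151 in the other libraries. Cells gated as endothelial, fibroblast or epithelial/carcinoma were then left out, while cells without a lineage were kept. The G2/M sums were 451 and 399.8 against 497 and 553 CPM, and the S sums 352, 266, 333 and 367 CPM. The mix of lineages among the leukocytes was left as it was, and its part in these sums was not tested.

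In every library, each of the other 5 lineages held fewer G2/M UMIs than the T, alveolar macrophage or monocyte/macrophage gate. This did not extend to the broad genes. Endothelial cells had 667, 1653, 724 and 610 Stmn1 UMIs in WT 1, WT 2, PD-L1 KO 1 and 2, more than the T gate in each library. NK cells gave G2/M sums of 379, 769, 196 and 1432 CPM, so that PD-L1 KO 1 was the lowest and PD-L1 KO 2 the highest library. Ube2c there had 5, 29, 5 and 72 UMIs (7.40, 61.4, 12.7 and 168 CPM), Mcm7 measured 34.0, 23.3, 50.8 and 30.4 CPM and Hmgb2 489.6, 510.4, 397 and 1011 CPM. Without PD-L1 KO 1, 11 of 30 tested genes were called in NK cells, all with the higher value under the PD-L1 KO label, where 1.50% of all genes were called. Without PD-L1 KO 2, 2 of 27 were called, both with the lower value there (0.745% of all genes).

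B cells gave G2/M sums of 58.8, 224, 88.4 and 110.1 CPM, and 1 cell of WT 2 held 69.4% of that library's G2/M UMIs. In the B gate Mki67 had 2, 56, 6 and 8 UMIs (2.35, 68.4, 8.28 and 15.2 CPM), Rrm1 measured 10.6, 24.4, 23.5 and 30.4 CPM, and Stmn1 15.3 and 37.9 against 40 and 74.0 CPM (log2 difference 1.08, SE 0.39, edgeR adjusted p = 0.999). Only the Stmn1 groups did not overlap among these 3 genes.

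Dendritic cells, at 25 to 38 cells per library, gave G2/M sums of 167.5, 759, 82.2 and 942 CPM. Birc5, which encodes survivin, had 4, 18, 1 and 36 UMIs there (12, 43.4, 3.57 and 86.9 CPM), Pclaf measured 12, 96.4, 3.57 and 130.4 CPM, and Tubb5 350, 467, 368 and 686 CPM, and the groups overlapped for each. Endothelial cells had Top2a at 30.1, 2.56, 9.26 and 2.04 CPM, with WT 1 apart from the others, Mcm4 at 22.6, 15.9, 11.0 and 14.3 CPM and Stmn1 at 456, 423, 419 and 416 CPM. In neutrophils Ube2c had 11, 0, 14 and 20 UMIs (7.0, 0, 12.7 and 14.3 CPM), Rrm1 measured 11.4, 8.97, 6.33 and 8.56 CPM, and Hmgb2 752, 678, 801 and 846 CPM.

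Further cell cycle genes were read from 7 lists. In whole libraries, T cells, alveolar macrophages and monocyte/macrophage cells, 0 genes of any list passed the test in either direction. The median log2 difference over all genes tested was -0.00041 in the T gate, -0.0033 in the monocyte/macrophage gate and -0.0041 in alveolar macrophages. The share of all genes above 0 was not counted. Genes of a list can be read from the same few cells, so the counts below are not independent observations. Kinetochore, spindle and cytokinesis genes had 25 of 26 tested members above 0 in the T gate (median log2 difference 0.90), 25 of 26 in the monocyte/macrophage gate (0.41) and 18 of 27 in alveolar macrophages (0.06). Polymerase, clamp loader and fork genes had 20 of 21 above 0 in the T gate (0.28), 6 of 21 in the monocyte/macrophage gate (-0.13) and 20 of 21 in alveolar macrophages (0.31).

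Origin licensing and firing genes had 7 of 9 above 0 in the T gate and 6 of 10 in the monocyte/macrophage gate, and 10 of 10 in alveolar macrophages. Histone genes had 8 of 8, 4 of 7 and 5 of 5 above 0 in these gates, G1 cyclins and kinases 5 of 8, 3 of 8 and 6 of 9, and cell cycle transcription factors 6 of 6, 4 of 9 and 7 of 8. CDK inhibitors and pocket proteins, which hold cells in G1, had 5 of 9, 3 of 10 and 5 of 9 above 0. Over these lists the smallest p in whole libraries was that of Myc, a transcription factor of growth and cell cycle entry. Myc measured 7.77 and 10.4 CPM in WT 1 and WT 2 and 15.0 and 14.3 CPM in PD-L1 KO 1 and 2, without overlap (log2 difference 0.76, SE 0.16, edgeR adjusted p = 0.748).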

How the data were processed

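The deposited tables give UMI counts for each gene in each barcode of 4 libraries; per the submitters' processing notes they were made by the authors with STAR in Cell Ranger 3.1.0 against mm10. The handling of reads from near-identical genes is not stated there. Barcodes needed at least 200 genes and at most 10% mitochondrial UMIs (1126 failed). Scrublet (scanpy 1.11.5) scores marked doublets at 0.8% per 1000 barcodes (216). A cell entered a lineage with at least 3 of its markers detected and 60% of all lineage-marker UMIs. Foxp3+ cells, CD8 cells and CD4 cells were split by these genes. Counts were summed per library and gate and tested with edgeR 4.0.16 (filterByExpr, TMM, quasi-likelihood, Benjamini-Hochberg over all genes tested, threshold 0.05), with DESeq2 1.42.0 as an alternative. CPM are per 1000000 UMIs of the kept cells of that gate and library. Single sums and shares had exact permutation tests. All 32 genes are accounted for, and per-library values are given for Mki67, Top2a, Pcna, Mcm5, Rrm2 and Stmn1 in whole libraries and T cells, and for the S, G2/M and broad gene with the smallest p in each comparison. On simulated data with T-gate sizes (8638 genes) the test recovered 47 of 72 genes changed by 1 log2 unit and 113 of 119 changed by 2, with 15 false calls; in whole libraries (13986 genes) it recovered 27 of 88 and 89 of 110, with 14 false calls. Other settings tried are in the closing section. The genes and lists were chosen with earlier results of these data known.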

Additional observations from a re-analysis of the deposited data

Results flagged for a closer look

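The S sums below were picked from the lineages and subsets compared because their groups did not overlap, and both signs occurred among them. In the other lineages and subsets compared the S groups overlapped. The exact permutation p of each picked sum was 0.33, the smallest that 2 against 2 libraries allow. Shuffled labels would separate the groups in this share of cases, so opposite signs among sums picked this way cannot show that gates differ. The log2 difference (PD-L1 KO minus WT) was 0.23 in alveolar macrophages, 0.43 in CD8 T cells and 1.86 in CD4 T cells, with both libraries labelled PD-L1 KO above both labelled WT, and -0.28 in C1q-high cells, with both below. The CD4 value rests on PD-L1 KO 2: the S sums were 213 and 143 CPM against 266 and 1025 CPM, 7 cells with 5 or more G2/M genes held 85.8% of the S UMIs of that library's CD4 cells, and without it the log2 difference was 0.58. That of CD8 cells was 0.15 without WT 2 and 0.78 without WT 1. That of C1q-high cells was -0.15 without WT 1, -0.14 without PD-L1 KO 1 and -0.43 without PD-L1 KO 2. The difference between gates was not tested, and each gate has 2 libraries a group.

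Cells outside the gates compared also held G2/M transcripts. Of 1787 kept cells without a lineage, 99 had 5 or more G2/M genes. The monocyte/macrophage, T and alveolar macrophage gates held 78, 74 and 65 such cells. The cells without a lineage had G2/M sums of 500, 347, 429 and 410 CPM in WT 1, WT 2, PD-L1 KO 1 and 2. These groups overlapped, with a log2 difference of -0.01. Shares with at least 2 G2/M genes were 6.25%, 3.25%, 4.90% and 4.26% after thinning, and 17.3%, 11.4%, 20.5% and 22.5% unthinned. Of the 22 cells with epithelial or carcinoma markers 7 had 5 or more G2/M genes. Among 205 doublet-marked barcodes 14 did, and among 1126 barcodes that failed the cell filter 15 did.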

How the results depend on the processing

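The main test called 0 of the 32 genes in every gate. Leaving out each library in turn gave 0 to 29 calls in whole libraries, 0 to 16 in T cells, 0 to 11 in NK cells, 0 to 2 in B cells, 0 to 1 in alveolar macrophages and 0 to 1 in neutrophils; with one library gone the lone sample of its group is assumed to vary like the others. These calls went both ways by label in NK cells, B cells and neutrophils. In NK cells they were lower under PD-L1 KO without PD-L1 KO 2 and higher otherwise. B-cell calls were lower without WT 1 and higher without PD-L1 KO 1. The neutrophil call was higher without WT 1 and lower without PD-L1 KO 2. In T cells DESeq2 gave 1 call, the 80% gate 3, no filter on low counts 17, the replicate block 7 and, added after seeing the data, a replicate block with crossed numbers 18 (1.84% of all genes). No low-count filter gave 1 call in NK cells (0.318%), 2 in monocyte/macrophage cells (1.49%) and 1 in neutrophils (0.582%), and the crossed replicate block 1 in neutrophils (1.37%). Deviations of same-numbered libraries correlated at -0.30 over genes in whole libraries and -0.09 in T cells. With so few libraries this cannot show whether same-numbered libraries were handled together. The replicate block added calls among these genes in no gate other than T cells. With each library left out in turn, whole-library log2 differences ran from -0.19 to 0.70 for Mcm5, -0.093 to 0.88 for Rrm2 and -0.18 to 0.087 for Stmn1, and those of T cells from -0.070 to 0.76 for Pcna and -0.60 to 1.37 for Rrm2. Those of Mcm5, Rrm2 and Pcna were below 0 without WT 2 (Rrm2 in T cells also without PD-L1 KO 2), and that of Stmn1 was above 0 without WT 2 or PD-L1 KO 1. Stmn1 gave 0.15 in whole libraries without the cells gated as endothelial, fibroblast or epithelial/carcinoma. The cause was not tested.

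The G2/M sum had log2 differences of -1.55 to 1.32 in NK cells, -2.49 to 1.61 in dendritic cells and -1.49 to 1.46 in endothelial cells when 1 library was left out, and 0.80 to 1.36 in T cells, where the S sum gave 0.087 to 1.12. With the 80% gate alveolar macrophages gave 0.17 for S and 0.40 for G2/M, and without the top cell of each library the monocyte/macrophage G2/M sum gave 0.66. At the main setting, thinned to 1500 UMIs, shares of S-positive cells differed (PD-L1 KO minus WT) by 3.19 percentage points in T cells. The difference there was 7.72 unthinned and 6.89 with 5 genes. In alveolar macrophages the differences were 0.92 at the main setting, 3.28 thinned to 1000 UMIs and 3.17 thinned to 3000. They were 4.90 unthinned, 3.04 with 5 genes and -0.93 with the 80% gate there. In monocyte/macrophage cells they were -0.24 at the main setting, with overlapping groups, and 0.87 thinned to 1000, 7.58 unthinned and 2.85 with 5 genes. G2/M-positive shares differed by 2.40 points at the main setting and 6.58 unthinned in alveolar macrophages. In monocyte/macrophage cells they differed by 2.11 at the main setting, 7.24 unthinned and 3.88 with 5 genes. Aurkb, Bub1 and Plk1 rested on at most 39 UMIs in each T-cell library, which limits their precision.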
